A study of Homo sapiens with 6 samples.

Results

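The 9 proteasome subunit genes described here were the rows of the deposited table whose gene name starts with PSMA, PSMB, PSMC or PSMD: 9 of 1099 listed genes. They were PSMA2, PSMA3, PSMA5, PSMA7 and PSMB3 of the core particle, and PSMC1, PSMC2, PSMC6 and PSMD14 of the regulatory particle. Poly(A) RNA had been sequenced from a human cell line kept for 24 h with F/B extract, which the series title gives as an extract of Flos Sophorae Immaturus and broccoli seed (3 libraries), or with DMSO as vehicle (3 libraries). All 6 libraries are labelled A549, a lung adenocarcinoma line, of genotype WT, grown in serum-containing medium. The labels do not say whether the replicates came from separate cultures. The p-values here refer to the spread among these 6 libraries, and that spread may be technical. No source used here gives the dose of the extract.

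The proteasome is the large protease that degrades proteins tagged with ubiquitin. Its barrel-shaped core particle stacks rings of alpha subunits, which form the gate, and of beta subunits, some of which carry the cutting sites. The regulatory particle caps the barrel: a ring of ATPases unfolds the substrate and a lid subunit removes its ubiquitin. Subunit genes are known to be transcribed together in human cells, and the factor NRF1 (gene NFE2L1) raises them when proteasome activity is low.

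The table holds a selection made on the very comparison it reports. The deposited p-values and their adjusted values fit 11289 tested genes, and the listed 1099 are the 9.74% with the smallest p-values. A listed gene therefore had to differ between the groups, and the tests below describe the members without giving independent support. Of the 33 genes of the standard proteasome, 9 were listed (27.3%): 5 of 14 core genes (35.7%) and 4 of 19 regulatory genes (21.1%). Of the regulatory genes, 3 of 6 ATPases were listed and 1 of 13 non-ATPases. The catalytic beta subunits PSMB5, PSMB6 and PSMB7 and the 3 interferon-induced subunits PSMB8, PSMB9 and PSMB10 were not among the listed genes, which leaves their level and change not analysed here. In the authors' deposited table PSMA2 had the smallest p-value of the 9 (p = 2.6e-07, rank 159 of the list) and PSMC2 the largest (p = 0.00516, rank 1084), close to the largest p-value in the table (0.00535).

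The labelled cell line could be checked only in part. The A549 line is known to lack the gene MTAP. Here MTAP had 48.9, 52.5 and 55.9 TPM in extract and 57.6, 56.0 and 60.5 TPM in vehicle libraries, and the library names carry the letters AGS, the name of a gastric adenocarcinoma line. The MTAP level and the library names are at odds with the A549 label, and which line was sequenced is not settled here. None of 7 lung markers and none of 5 leukocyte markers was listed. A marker that was not listed may still be expressed, since the table holds only genes picked for a difference between the groups. Of 8 fibroblast and endothelial markers 1 was listed, COL1A1, with 10.0 to 14.9 TPM in extract and 12.8 to 15.8 TPM in vehicle libraries. Of 15 gastrointestinal markers 4 were listed (VIL1, CDH17, TFF1 and REG4), with a summed level of 224 to 256 TPM in extract and 327 to 341 TPM in vehicle libraries. Their part in the results on the proteasome was not tested.

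Upstream sequence is shown for 4 core genes and 1 regulatory gene, so that the stretches can be compared by eye. The sequences are RefSeq's (GRCh38.p14), written 5′ to 3′ on the strand of the gene. Each runs from 250 bases before RefSeq's start up to that start, leaving out bases that GENCODE 29 places in the gene. Capitals mark matches, on either strand, to the CCAAT box (CCAAT), the antioxidant response element core (TGACNNNGC) and the ETS core (CCGGAAG).
PSMA2, chr7:42932224-42932424 (- strand): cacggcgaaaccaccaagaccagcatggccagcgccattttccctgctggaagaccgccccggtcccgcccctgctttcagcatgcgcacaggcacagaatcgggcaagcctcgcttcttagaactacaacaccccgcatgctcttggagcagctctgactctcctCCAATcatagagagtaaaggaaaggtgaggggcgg
PSMA3, chr14:58244593-58244830 (+ strand): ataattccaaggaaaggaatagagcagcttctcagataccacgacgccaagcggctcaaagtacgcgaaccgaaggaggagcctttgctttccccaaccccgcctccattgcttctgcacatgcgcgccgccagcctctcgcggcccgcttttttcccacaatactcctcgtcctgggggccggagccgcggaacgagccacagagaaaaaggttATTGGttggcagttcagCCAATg
PSMA5, chr1:109426449-109426698 (- strand): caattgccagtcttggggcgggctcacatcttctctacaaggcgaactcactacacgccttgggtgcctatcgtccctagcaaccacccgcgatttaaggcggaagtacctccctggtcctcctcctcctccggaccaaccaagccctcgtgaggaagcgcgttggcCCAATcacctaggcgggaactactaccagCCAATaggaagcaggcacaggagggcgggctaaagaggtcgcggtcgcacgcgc
PSMB3, chr17:38752491-38752735 (+ strand): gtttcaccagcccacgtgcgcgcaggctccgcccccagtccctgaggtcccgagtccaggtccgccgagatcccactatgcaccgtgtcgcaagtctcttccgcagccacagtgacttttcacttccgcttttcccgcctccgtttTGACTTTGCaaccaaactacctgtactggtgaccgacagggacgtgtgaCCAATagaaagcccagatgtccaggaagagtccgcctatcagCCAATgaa
PSMC6, chr14:52706950-52707171 (+ strand): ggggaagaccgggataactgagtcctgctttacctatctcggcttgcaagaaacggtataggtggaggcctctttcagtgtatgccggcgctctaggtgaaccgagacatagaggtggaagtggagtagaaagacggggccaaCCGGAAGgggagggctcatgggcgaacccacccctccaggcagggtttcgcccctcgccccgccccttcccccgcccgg

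Of the 8 members with an entry (PSMA7 had none), 6 held a CCAAT box in the 250 bases before RefSeq's start, against 32.0% of 35116 promoters of the same length. These were the 4 core genes printed above, with 2 boxes each in PSMA3, PSMA5 and PSMB3 and 1 in PSMA2, and the regulatory genes PSMC2 and PSMD14. In PSMD14 the match on the lower strand overlaps the match on the upper strand. For PSMC2 and PSMD14 no bases remained once those that the annotation places in the gene were left out, as above. Their CCAAT matches thus lie inside the annotated gene, although before RefSeq's start. Among the members with an entry, only the 4 core genes held a CCAAT box outside the annotated gene. The antioxidant response element core, the letters bound by NRF1 and NRF2 with a small MAF partner, was found in PSMB3 alone of these 8 (10.9% of all promoters), at positions -104 to -96 from the start, and read tgactttgc. The ETS core was found in PSMC2, again inside the annotated gene, and in PSMC6 (8.52% of all promoters). PSMC1 held none of the 3 motifs, and its stretch is not printed above. Its 250 bases were 45.6% GC, against a median of 58% over all promoters. A match is a description of letters, not of binding.

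With F/B extract, 7 of the 9 subunit genes fell by the edgeR quasi-likelihood test with Benjamini-Hochberg adjustment over 11289 genes. All 9 had a lower mean with extract, by 11.1% (PSMC6) to 24.8% (PSMA2), while PSMC1, PSMC2 and PSMC6 stood just above 0 on 1 other scale, DESeq2 size factors taken from the listed genes. Of all listed genes 52.9% were called lower by the same rule: 581 genes, out of the 712 that were lower at all. The 7 called members became 1, PSMA2, without extract replicate 2, where 15.8% of listed genes were called lower, and likewise without vehicle replicate 2 (11.6%) or vehicle replicate 3 (20.9%). They became 3 without extract replicate 3 (39%), and 6 without extract replicate 1 (51.5%) or vehicle replicate 1 (42.6%). The count of members called thus fell in the same settings as the count over the whole table. The median log2 fold change, extract over vehicle, was -0.21 over the members, -0.22 over all listed genes and -0.29 over the 712 lower genes. In bulk RNA fewer cells of a type and less RNA per cell cannot be told apart.

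**Figure D1:**
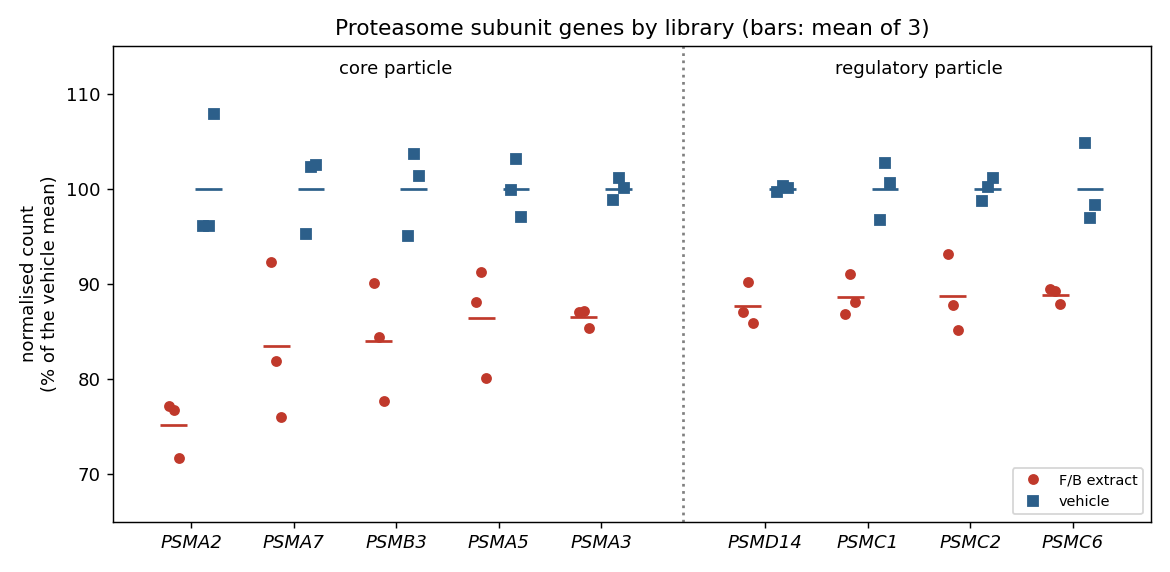
Normalised counts of the 9 subunit genes in each library, as a percentage of the mean of the 3 vehicle libraries (red circles F/B extract, blue squares vehicle, replicates 1 to 3 from left to right, short bars the group means). The extract and vehicle points of each gene are apart, and PSMA2 lies lowest, with a mean 24.8% below vehicle; on the scale of DESeq2 size factors taken from the listed genes, PSMC1, PSMC2 and PSMC6 had log2 fold changes just above 0.

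The groups did not overlap in normalised counts for any of the 9 members, as for 63.8% of all listed genes on the lower side. Of the 712 listed genes that were lower, 701 did not overlap, so the members shared this with nearly every lower gene of the table. Normalised counts are rounded estimated counts divided by a size factor per library.

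PSMA2, an alpha subunit of the outer ring, had the largest decrease of the members. It lies on chromosome 7 from 42916857 to 42932223 (GRCh38, minus strand; ENSG00000106588). Its normalised counts were 978, 973 and 909 in extract replicates 1 to 3 and 1218, 1218 and 1367 in vehicle replicates 1 to 3. The highest extract library was below the lowest vehicle library, and vehicle replicate 3 stood above the other vehicle libraries. Its log2 fold change was -0.41 (SE 0.06, edgeR adjusted p = 0.00606), a level 1.33-fold lower. PSMA2 was called lower in 14 of 17 other settings, and the adjusted p ranged up to 0.0785 (limma on log2(TPM + 1)). The 17 include fits without the filter on low counts and with a stricter one, which hold the same genes and repeat the first fit. Its estimated counts were not whole in any library, and a protein-coding read-through gene (AC010132.3) overlaps it on the same strand in GENCODE 29, so reads may be split between the entries.

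PSMA7, also an alpha subunit, had 4282, 3799 and 3527 normalised counts with extract and 4420, 4742 and 4755 with vehicle. Extract replicate 1 was the closest to the vehicle libraries, and the 3 extract libraries were spread more widely (SD 383) than those of vehicle (SD 190.0). The log2 fold change was -0.26 (SE 0.07, edgeR adjusted p = 0.0417). PSMB3, a beta subunit without a cutting site, was similar, with 1552, 1454 and 1338 with extract and 1638, 1786 and 1746 with vehicle. Extract replicate 1 was again the highest of its group and vehicle replicate 1 the lowest of its own. Its log2 fold change was -0.25 (SE 0.06, edgeR adjusted p = 0.0355).

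PSMA3, an alpha subunit, showed the tightest groups of the core genes. It had 3188, 3195 and 3128 normalised counts with extract and 3622, 3706 and 3666 with vehicle. Its log2 fold change was -0.21 (SE 0.04, edgeR adjusted p = 0.0115), and the spread within each group was small (SD 36.9 with extract, 42.1 with vehicle). An antisense gene, PSMA3-AS1, overlaps it, and the sources used here do not state whether counting used the strand. PSMA5, an alpha subunit as well, had 1381, 1430 and 1257 with extract and 1567, 1617 and 1521 with vehicle. At nearly the same log2 fold change (-0.21, SE 0.06) it missed the threshold (edgeR adjusted p = 0.0560), its SE being larger than that of PSMA3.

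The regulatory genes changed by less. PSMD14 (RPN11 in yeast), the metalloprotease of the lid that cuts ubiquitin from substrates, had 2625, 2723 and 2591 normalised counts with extract and 3006, 3027 and 3020 with vehicle. The vehicle libraries were nearly level (SD 10.8), and all extract libraries lay below them. The log2 fold change was -0.19 (SE 0.04, edgeR adjusted p = 0.0203). PSMC1 (RPT2), an ATPase whose tail reaches into the alpha ring and opens the gate, had 2805, 2943 and 2846 with extract and 3125, 3318 and 3250 with vehicle (-0.17, SE 0.04, edgeR adjusted p = 0.0348). Its counts were not whole in any library, and 13 pseudogenes are named for it in GENCODE 29, so its counts depend on how shared reads were assigned.

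The ATPase PSMC6 (RPT4) had 2484, 2480 and 2441 normalised counts with extract and 2910, 2692 and 2730 with vehicle. Vehicle replicate 1 was the highest, and the log2 fold change was -0.17 (SE 0.04, edgeR adjusted p = 0.0457). The ATPase PSMC2 (RPT1) had 1999, 1883 and 1826 with extract and 2117, 2148 and 2170 with vehicle. Its log2 fold change was -0.17 (SE 0.05), which missed the threshold (edgeR adjusted p = 0.0536). The 4 regulatory genes thus ran from -0.19 to -0.17 on the log2 scale, a range narrower than the SE of each, whereas the 5 core genes ran from -0.41 to -0.21.

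Each core gene had a lower log2 fold change than each regulatory gene. The gap between the nearest pair, PSMA3 at -0.21 and PSMD14 at -0.19, was smaller than the SE of either. The medians were -0.25 for the core and -0.17 for the regulatory genes, a difference of -0.08. The complete separation was lost without vehicle replicate 2, where PSMA5 stood at -0.19 and PSMC6 also at -0.19, without extract replicate 3, where PSMA5 stood at -0.16 and PSMD14 at -0.17, and on TPM values. The difference of medians was -0.046 without vehicle replicate 2, -0.034 without extract replicate 3 and -0.126 without extract replicate 1.

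Set against the other 8 members in the same library, PSMA2 was the gene that departed most. Its count over the geometric mean of the others was 0.409, 0.413 and 0.408 with extract and 0.461, 0.449 and 0.510 with vehicle, which did not overlap. The difference was -0.20 on the log2 scale, where the SD was 0.010 among extract and 0.097 among vehicle libraries. The same difference ran from -0.04 (PSMA7) to 0.07 (PSMC6) for the remaining 8 genes. This quantity needs no scaling between libraries. It was picked out after the values were seen, and no test is attached to it.

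The ratio of summed core to summed regulatory transcripts compares the listed core and regulatory genes within each library, again without scaling between libraries. It covers the RNA of 5 of 14 core and 4 of 19 regulatory genes, so it does not give the balance of the particles. In TPM it was 1.68, 1.53 and 1.48 in extract replicates 1 to 3 and 1.57, 1.67 and 1.68 in vehicle replicates 1 to 3. Extract replicate 1 was as high as the highest vehicle library, so the groups overlapped. The means were 1.56 ± 0.11 with extract and 1.64 ± 0.06 with vehicle (SD, n = 3 each), a log2 difference of -0.07 that was smaller than the pooled SD of 0.08. It was -0.12 without extract replicate 1 and -0.03 without extract replicate 3. With the geometric mean of TPM in place of the sum, the ratio was 0.999 ± 0.053 with extract and 1.042 ± 0.062 with vehicle (SD, n = 3 each). The log2 difference was then -0.06, against a pooled SD of 0.08. With summed counts in place of summed TPM the ratio was 1.09 ± 0.05 with extract and 1.15 ± 0.03 with vehicle (SD, n = 3 each), and the groups overlapped as well. The log2 difference in counts was -0.08, larger than the pooled SD of 0.05, and it was -0.05 without extract replicate 3 and -0.11 without extract replicate 1. The mean ratio was thus lower with extract each time, by more than the pooled SD in counts and by less in TPM.

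**Figure D2:**
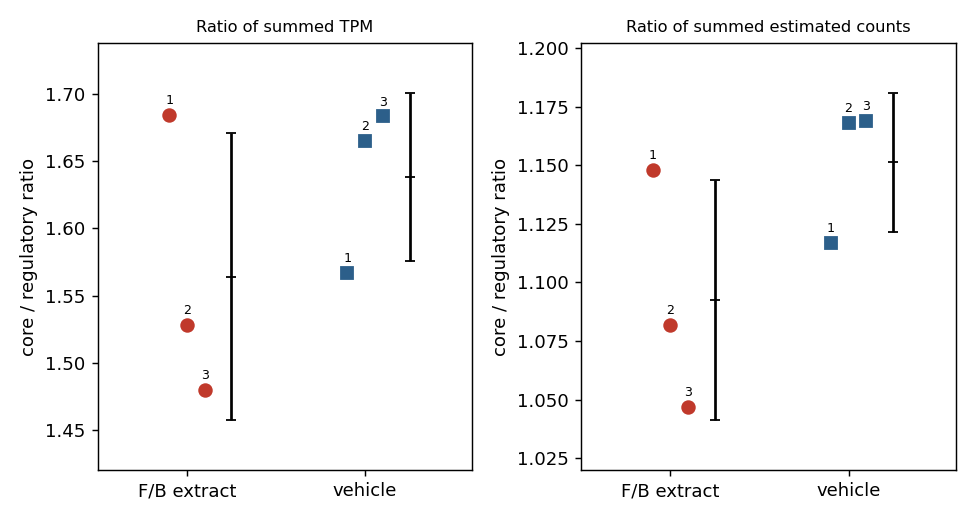
Ratio of the 5 listed core genes to the 4 listed regulatory genes in each library, from summed TPM (left) and from summed estimated counts (right), with replicate numbers beside the points and mean and SD as bars (n = 3 per group; the axes do not start at 0). Extract replicate 1 lies inside the vehicle range in the count panel and at its top in the TPM panel.

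Within the extract group, core sums were 11381, 10851 and 10158 normalised counts in replicates 1 to 3, against 12464, 13069 and 13056 with vehicle. Regulatory sums were 9912, 10028 and 9704 with extract and 11158, 11185 and 11170 with vehicle. The regulatory sums were nearly level within each group, and the core sums carried most of the spread.

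Although the subunits are built into the particle in fixed proportion, their transcript levels differed widely. Per length, as TPM, the mean over the 6 libraries ran from 493 for PSMA3 to 44.0 for PSMA5, or 11.2-fold. These levels depend on the transcript length used: in normalised counts PSMA5 and PSMB3 were closer, with vehicle means of 1568 and 1723. The order was PSMA3, PSMA7 (487), PSMC1 (383), PSMB3 (262), PSMC6 (219), PSMD14 (177), PSMA2 (81.4), PSMC2 (74.9) and PSMA5. Neighbours in this order whose ranges over the libraries overlapped were PSMA3 with PSMA7, PSMB3 with PSMC6, and PSMA2 with PSMC2. Of these, PSMA3 exceeded PSMA7 in 3 of 6 libraries, PSMA2 exceeded PSMC2 in 5 of 6, and PSMB3 exceeded PSMC6 in all 6. Core and regulatory genes were interleaved: the highest and the lowest were both core genes. All members but PSMA5 were above the median of the listed genes (53.7 TPM).

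**Figure D3:**
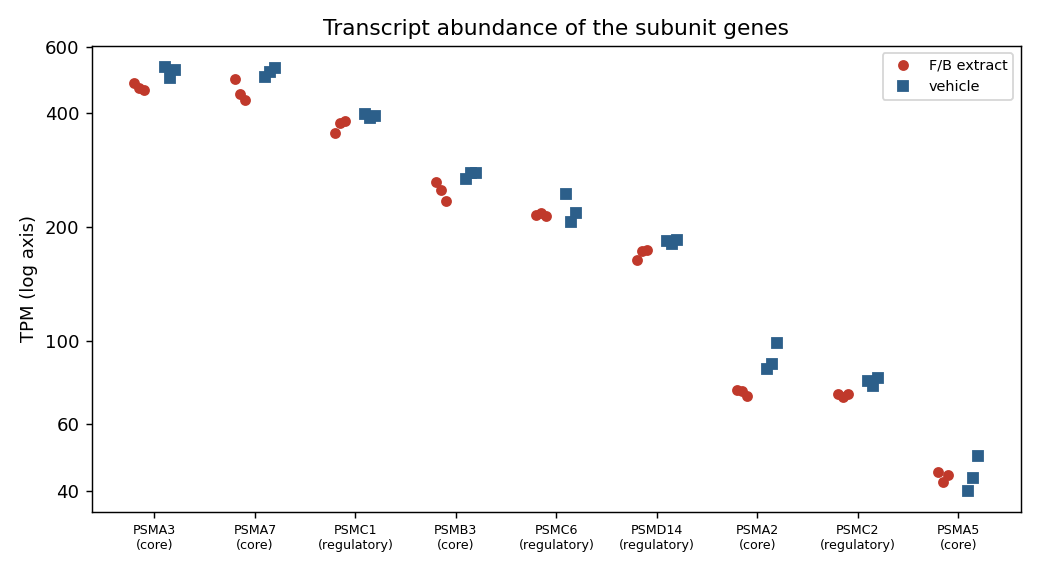
TPM of each subunit gene in the 3 extract libraries (red circles) and 3 vehicle libraries (blue squares) on a log axis, ordered by mean level. Levels run from 493 TPM for PSMA3 to 44.0 TPM for PSMA5, and the difference between genes is far larger than that between the groups.

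TPM values gave smaller decreases than counts. The groups did not overlap in TPM for 7 of the 9 members, against 44.2% of all listed genes on the lower side. That share is 486 of 1099 listed genes, of which only 707 were lower at all on log2(TPM + 1). The exceptions among the members were PSMA5 and PSMC6. PSMA5 was at 44.9, 42.3 and 44.0 TPM with extract and 40.1, 43.3 and 49.6 TPM with vehicle, so the extract libraries lay inside the vehicle range. PSMC6 was at 215, 218 and 214 TPM with extract and 245, 206 and 219 TPM with vehicle, where vehicle replicate 1 alone was high. By contrast PSMA2 was at 74.0, 73.4 and 71.3 TPM with extract and 84.3, 86.9 and 98.7 TPM with vehicle, apart on this scale as well.

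For PSMA5 the transcript length that joins counts to TPM changed between libraries. Scaled so that the median listed gene has its deposited length, it was 3174, 3624 and 3192 bases with extract and 3984, 3716 and 3119 bases with vehicle, a 1.28-fold range. For PSMD14 the same range was 1.02-fold and for PSMA7 1.02-fold. The length of PSMC1 came to 798 to 846 bases, against 4390 bases in the length column of the table, and its TPM is high for its counts for that reason.

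How much the subunit genes fell depended on the scale between libraries. The scale implied by the TPM values moved the median log2 fold change of the table up by 0.08, plain sums over the listed genes by 0.14, TMM over the listed genes by 0.16 and DESeq2 size factors over the listed genes by 0.17. On the TPM scale 1 member, PSMA2, was called lower (log2 fold change -0.33, edgeR adjusted p = 0.0125), where 19.5% of listed genes were. With sums PSMA2 alone passed at -0.28 (edgeR adjusted p = 0.0253), where 11.7% of listed genes did, and with TMM it alone passed again, at -0.26 (edgeR adjusted p = 0.0482), where 8.01% of listed genes did. With DESeq2 size factors taken from the listed genes 0 members passed the edgeR test, where 7.92% of listed genes were called lower. There PSMA2 stood at -0.24, and PSMC1, PSMC2 and PSMC6 were just above 0, at 0.00049, 0.00025 and 0.0040. The last 3 scales are centred on a table in which every gene had been picked for its difference. limma on log2(TPM + 1) called 0 members, where 6.82% of listed genes were called lower. DESeq2's own test with the first size factors called all 9, where 62.7% of listed genes were called lower and 689 of the 712 lower genes passed. Adjustment over the listed genes alone also called all 9, and with them each of the 712 lower genes (64.8% of listed genes). Over all listed genes the calls were 581 lower and 319 higher with the size factors used, 214 and 370 on the TPM scale, 129 and 386 with sums, 88 and 386 with TMM, and 87 and 387 with the DESeq2 size factors.

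**Figure D4:**
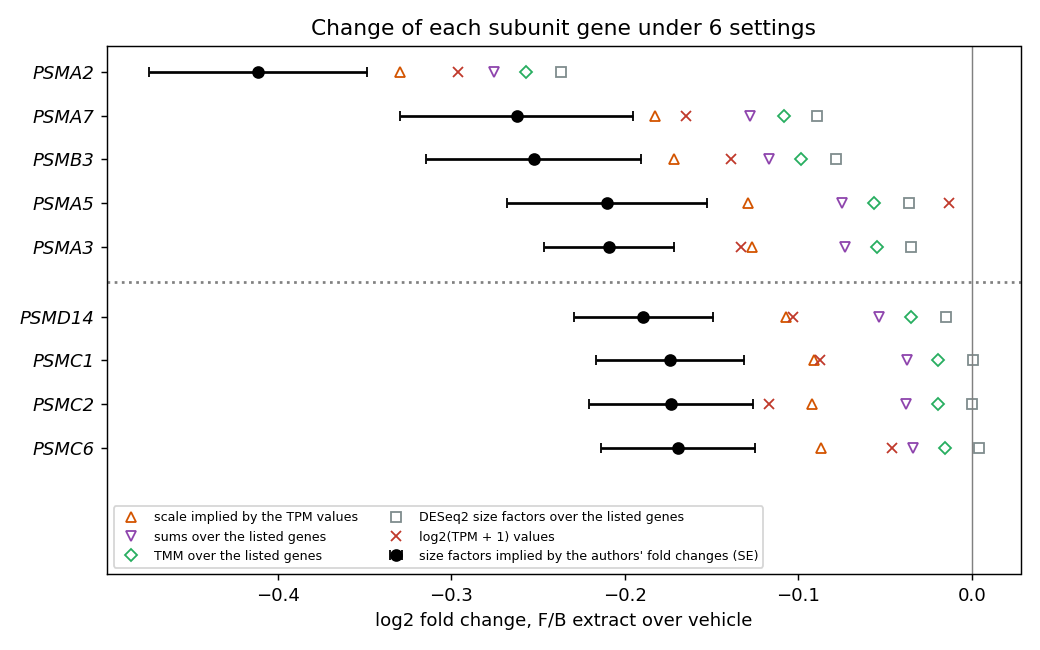
Log2 fold change, F/B extract over vehicle, of each subunit gene with the size factors implied by the authors' fold changes (black points, bars SE), with 4 other scales between libraries and from log2(TPM + 1) values. The 9 genes lie at -0.41 to -0.17 with the first setting. Each of the 4 other scales shifts all 9 by nearly the same amount, and PSMC1, PSMC2 and PSMC6 cross 0 with the DESeq2 size factors. With log2(TPM + 1) values the shifts differ, from -0.210 to -0.013 for PSMA5 and from -0.173 to -0.117 for PSMC2.

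Related genes of the ubiquitin and proteasome system were taken from 5 lists. Of 6 assembly chaperones 1 was listed, POMP, which guides the beta ring into place. POMP fell, with 1989, 1845 and 1921 normalised counts with extract and 2460, 2208 and 2113 with vehicle (log2 fold change -0.24, SE 0.06, edgeR adjusted p = 0.0441). In TPM its groups overlapped, with 191, 223 and 267 with extract and 249, 235 and 228 with vehicle. None of 10 other subunits, activators and associated factors was listed. Of 14 transcriptional regulators of proteasome genes 2 were listed and both fell: NFE2L2, the gene of NRF2, at -0.16 (edgeR adjusted p = 0.0283), and its small MAF partner MAFK at -0.25 (edgeR adjusted p = 0.0418). On the TPM scale none of these 3 genes passed, and with DESeq2 size factors NFE2L2 came to 0.01. The TPM values of NFE2L2 overlapped as well, with 155 in extract replicate 3 and 153 in vehicle replicate 1. NFE2L1 was not listed.

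Among the genes of ubiquitin and its activating enzymes, RPS27A encodes ubiquitin fused to a ribosomal protein. RPS27A fell, with 8942 ± 154 normalised counts with extract and 10994 ± 361 with vehicle (SD, n = 3 each; log2 fold change -0.30, edgeR adjusted p = 0.00430). Of 13 shuttle and segregase genes 3 were listed. UBQLN1, a carrier of ubiquitinated proteins to the proteasome, fell (-0.15, edgeR adjusted p = 0.0390), and the carrier RAD23B was at -0.15 (edgeR adjusted p = 0.0762). With TMM they stood at 0.01 and 0.0016. SQSTM1, the autophagy receptor p62, went the other way, with 12653, 11332 and 9362 normalised counts with extract and 6578, 7001 and 6681 with vehicle (log2 fold change 0.72, SE 0.09, edgeR adjusted p = 0.00320).

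The closest comparable complex in the table was the CCT chaperonin, a ring that folds actin and tubulin. Its 7 listed subunits had a median log2 fold change of -0.18 (5 called lower), near the -0.17 of the regulatory proteasome genes. The 53 listed genes named RPL or RPS, left free of pseudogenes, had a median of -0.29 (44 called lower), where 52.9% of all listed genes were called lower. Without vehicle replicate 2 the calls were 0 of 7 and 12 of 53, and with TMM 0 and 9. With TMM 1 of the 7 and 4 of the 53 were higher, and with DESeq2 size factors 1 and 10. These groups share the libraries with the proteasome genes, and no test of a difference between them was made.

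The listed genes whose profile over the 6 libraries was most like the mean profile of the members were KLF4, PIM1, RPA2, S100A16 and SNHG17, with Pearson's r of 0.994 to 0.997 on log2 normalised counts. Their log2 fold changes were -0.34 to -0.46. The members themselves had r of 0.870 (PSMC6) to 0.983 (PSMA3) with their own mean profile, which they help to form. All these genes were selected on the same group difference and share the size factors, so the values describe the profiles only. In the mean profile extract replicate 3 was the lowest library, at -0.18 on the log2 scale from the mean of all, with extract replicates 1 and 2 at -0.07 and -0.09 and vehicle libraries at 0.09 to 0.13.

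By the annotation deposited with the table, 8 of the 9 members belong to the proteasome pathway, and no other listed gene does. PSMD14 is the exception, with no pathway entry. The 5 core genes are the listed genes with the proteasome subunit domain. The AAA ATPase domain is found in the 3 PSMC genes and in 5 other listed genes, and PSMD14 is the 1 listed gene with the JAB domain of ubiquitin proteases.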

How the data were processed

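Estimated counts and TPM per library were deposited by the authors in 1 table, with a gene length and their own fold change (a ratio), log2 fold change, p-value and adjusted p-value for each gene, as named in the file headers. The deposited fold changes run vehicle over extract and were turned round here. Per the submitters' processing notes, the genome was GRCh38.p13; no source used here names the aligner or counter. Counts were rounded to whole numbers. Over the listed genes they summed to 3084337 to 3242553 in extract and 3436540 to 4640114 in vehicle libraries, which is not the depth.

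Libraries were scaled by the size factors that best return the deposited fold changes with DESeq2 1.42.0 (median absolute log2 difference 5.85e-05): 0.920, 0.959 and 0.935 for extract and 0.940, 1.23 and 1.05 for vehicle replicates 1 to 3. The test was edgeR 4.0.16 (R 4.3.3, limma 3.58.1), quasi-likelihood, threshold 0.05, with adjustment over 11289 genes, which takes unlisted genes to have larger p-values. The fit was tested on simulated data of 1099 genes, 200 of them changed, with adjustment over those 1099 alone. That simulation used known size factors and changes larger than those of any member, and it did not cover the adjustment over 11289 genes. The filter on low counts (filterByExpr) dropped 0 genes. SE is the absolute log2 fold change over the square root of F. The spread was estimated from selected genes, so p-values may be too small. Named genes are the members, all listed genes of 5 related lists, the 5 genes of most similar profile (entries without a symbol left out), and genes for the cell line label. A listed gene of these lists is not reported here. Members and lists were chosen with earlier results of these data known. The 3 motifs and the comparison of PSMA2 with the other members were chosen after the data were seen.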

Additional observations from a re-analysis of the deposited data

How the results depend on the processing

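With the size factors used, 900 listed genes and 7 members were called. The calls were 474 genes and 1 member with TMM, 474 and 0 with DESeq2 size factors, and 515 and 1 with sums, all 3 over the listed genes. On the TPM scale they were 584 and 1. limma on log2(TPM + 1) called 189 genes and 0 members, and with 0.1 as pseudocount 188 and 0. Leaving out each library gave 177 to 853 genes and 1 to 6 members: the lowest came without vehicle replicate 2, and without extract replicate 3 PSMA2, PSMA3 and PSMD14 passed. The cause was not tested. The DESeq2 size factors turned the log2 fold changes of PSMC1, PSMC2 and PSMC6 positive (0.000493, 0.000253 and 0.00401). DESeq2's own test and adjustment over the listed genes only called all 9 members lower, where they called 62.7% and 64.8% of listed genes lower. The adjustment, in which fewer genes enter, called each of the 712 lower genes. Leaving out the filter on low counts and using a stricter one left the same genes in the fit, so neither could change a call. The replicate number as a block called 291 genes and 1 member, PSMA2, where 19.4% of listed genes were called lower; same-numbered libraries did not deviate together (correlations -0.231, -0.00967 and -0.0321), so the numbers are not taken as pairs. The core-to-regulatory difference of medians stayed between -0.126 and -0.034, and the TPM ratio between -0.123 and -0.030 on the log2 scale, when each library was left out. The total depth of the libraries is not known from the listed genes.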
